A study of Phyllostachys edulis with 34 samples.

Results

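Among the lignin biosynthesis genes of Moso bamboo (Phyllostachys edulis), the F5H gene PH02Gene21400 and the CCoAOMT gene PH02Gene31245 are described here across all groups of seedlings treated with osmotic stress, salt or stress hormones. These 2 genes, of 59091 in the expression tables, were chosen by their measured FPKM, which looked low in the CK libraries beside other groups. The family names come from a list of lignin genes compiled by the study, which holds 33 F5H genes and 8 CCoAOMT genes among its 159 genes. Their levels in CK, in 0 h and in the treated groups all entered that choice, so every level set against CK or 0 h is given below as a description with no test. The description of low levels in CK held only in part. The lowest group mean of both genes was that of the libraries labelled ABA 24 h, whose label is in doubt (given below), and the CK groups ranked 10th (3 h) and 6th (24 h) of 11 from the top for F5H and 9th and 8th for CCoAOMT.

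F5H (ferulate 5-hydroxylase) is a cytochrome P450 enzyme that hydroxylates coniferaldehyde and coniferyl alcohol, and so opens the branch to the syringyl (S) units of lignin. CCoAOMT (caffeoyl-CoA O-methyltransferase) is a methyltransferase that converts caffeoyl-CoA to feruloyl-CoA, an earlier step on the way to guaiacyl (G) and syringyl units. Lignin stiffens and waterproofs the secondary cell wall of vessels and fibres, and genes of its pathway are known to respond to drought, salt and hormones in many plants.

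The series holds 34 poly(A)-selected RNA-seq libraries from young leaves of Moso bamboo seedlings kept in nutrient solution. The solution held 25% PEG (polyethylene glycol, an osmotic agent that mimics drought), 200 mM NaCl, 1 mM SA (salicylic acid, a defence hormone) or 1 µM ABA (abscisic acid, the hormone of water deficit), and leaves were taken after 3 h and 24 h. CK, taken here as the untreated control of each time since its label is not spelled out, and every treated group had 3 libraries at each time, and 0 h had 4 libraries, which makes 11 groups. The study's methods name the replicates as biological; where plants shared a vessel of solution, p-values measure only the spread between these libraries. Libraries held 28153302 to 51695158 counts with a median of 33238237, and none of 36 replicate pairs was identical. The leaf label was not checked against marker genes, because the tables give gene IDs without names.

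One library stood apart. Across 16867 genes, which are not independent replicates, the library labelled 0 h replicate 1 had a Spearman rho of 0.713 to 0.715 with the other 0 h libraries and of 0.964 to 0.973 with the ABA 24 h libraries, while each of the other 33 libraries had a rho of 0.949 to 0.991 within its own group. Values for 0 h are therefore given with and without it, and no main test below uses a 0 h library. The labels of both groups are in doubt, not only that of this library. The 4 libraries that resemble each other (0 h replicate 1 and the ABA 24 h libraries) are as many as 0 h has. The 3 others labelled 0 h are as many as ABA 24 h has. These similarities and group sizes alone cannot tell an exchange of the labels 0 h and ABA 24 h from a single mislabelled library. Whether other evidence separates them was not tested. Groups are kept as labelled, and every result below that uses ABA 24 h is a result for the libraries labelled ABA 24 h. With the labels exchanged, the 24 h level under ABA would be that of 0 h replicates 2 to 4, which for both genes lies above every ABA 3 h library, so that the fall with time under ABA given below would be a rise.

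The F5H gene was high at 0 h and after 24 h of NaCl, PEG and SA, and low elsewhere. Levels are in FPKM (fragments scaled to transcript length and library size), listed in order of replicate number. At 0 h, F5H stood at 2.81, 80.2, 84.05 and 87.0 FPKM, a mean of 63.5 ± 40.6 (SD, n = 4) or of 83.8 ± 3.41 without replicate 1. In NaCl 24 h the libraries gave 61.7, 54.5 and 59.5 FPKM (58.6 ± 3.69, SD, n = 3), and in PEG 24 h they gave 53.8, 48.6 and 51.7 FPKM (51.4 ± 2.59, SD, n = 3). These are the highest groups, and the 0 h libraries other than replicate 1 lay above every library of the rest. SA 24 h followed with 23.2, 18.2 and 21.7 FPKM (21.02 ± 2.54, SD, n = 3), apart from the groups on either side of it in the order. Below it came ABA 3 h with 10.995, 8.005 and 7.54 FPKM, CK 24 h with 7.51, 8.45 and 7.35 FPKM, and NaCl 3 h with 9.45, 5.325 and 8.41 FPKM. The libraries of these groups overlapped, with means of 8.85 ± 1.88, 7.77 ± 0.596 and 7.73 ± 2.15 FPKM (SD, n = 3 each). PEG 3 h had 5.79, 4.63 and 3.21 FPKM, SA 3 h had 4.18, 3.31 and 3.95 FPKM, and CK 3 h had 3.45, 4.11 and 3.46 FPKM. The means of these groups, 4.54 ± 1.29, 3.81 ± 0.453 and 3.68 ± 0.379 FPKM (SD, n = 3 each), could not be put in order in FPKM, because their libraries overlapped. The libraries labelled ABA 24 h were lowest, at 1.85, 1.63 and 2.20 FPKM (1.89 ± 0.286, SD, n = 3), below every library of the other 10 groups, with 126 to 167 counts behind each value.

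The CCoAOMT gene was high in a single group, NaCl 24 h. There it stood at 53.4, 48.0 and 54.0 FPKM (51.8 ± 3.28, SD, n = 3), and no other library of the series was above 10.6 FPKM. PEG 24 h gave 8.05, 7.25 and 10.6 FPKM (8.63 ± 1.74, SD, n = 3), and SA 24 h gave 5.77, 5.08 and 6.11 FPKM (5.66 ± 0.527, SD, n = 3). At 0 h it was listed at 0, 5.75, 6.21 and 6.74 FPKM, a mean of 4.68 ± 3.14 (SD, n = 4) or of 6.23 ± 0.494 without replicate 1. The 0 in replicate 1 was a count of 0, which allows up to 3 counts, while the others had 231 to 286. The 0 h and SA 24 h libraries overlapped with each other, and both groups lay below PEG 24 h. ABA 3 h had 2.925, 4.46 and 4.48 FPKM (3.96 ± 0.894, SD, n = 3), above every other library taken at 3 h. NaCl 3 h followed with 1.41, 0.490 and 1.35 FPKM, SA 3 h with 0.742, 0.823 and 0.872 FPKM, CK 24 h with 0.643, 0.6247 and 0.932 FPKM, and CK 3 h with 0.540, 0.780 and 0.484 FPKM. Neighbours among these groups overlapped, with means from 1.08 ± 0.517 down to 0.601 ± 0.157 FPKM (SD, n = 3). The lowest groups were PEG 3 h, with 0.150, 0.356 and 0.480 FPKM (0.329 ± 0.166, SD, n = 3), and ABA 24 h, with 0.279, 0.09245 and 0.0467 FPKM (0.139 ± 0.123, SD, n = 3), which overlapped. The 3 ABA 24 h libraries held 12, 4 and 2 counts, so that each of these values rests on few counts.

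**Figure D1:**
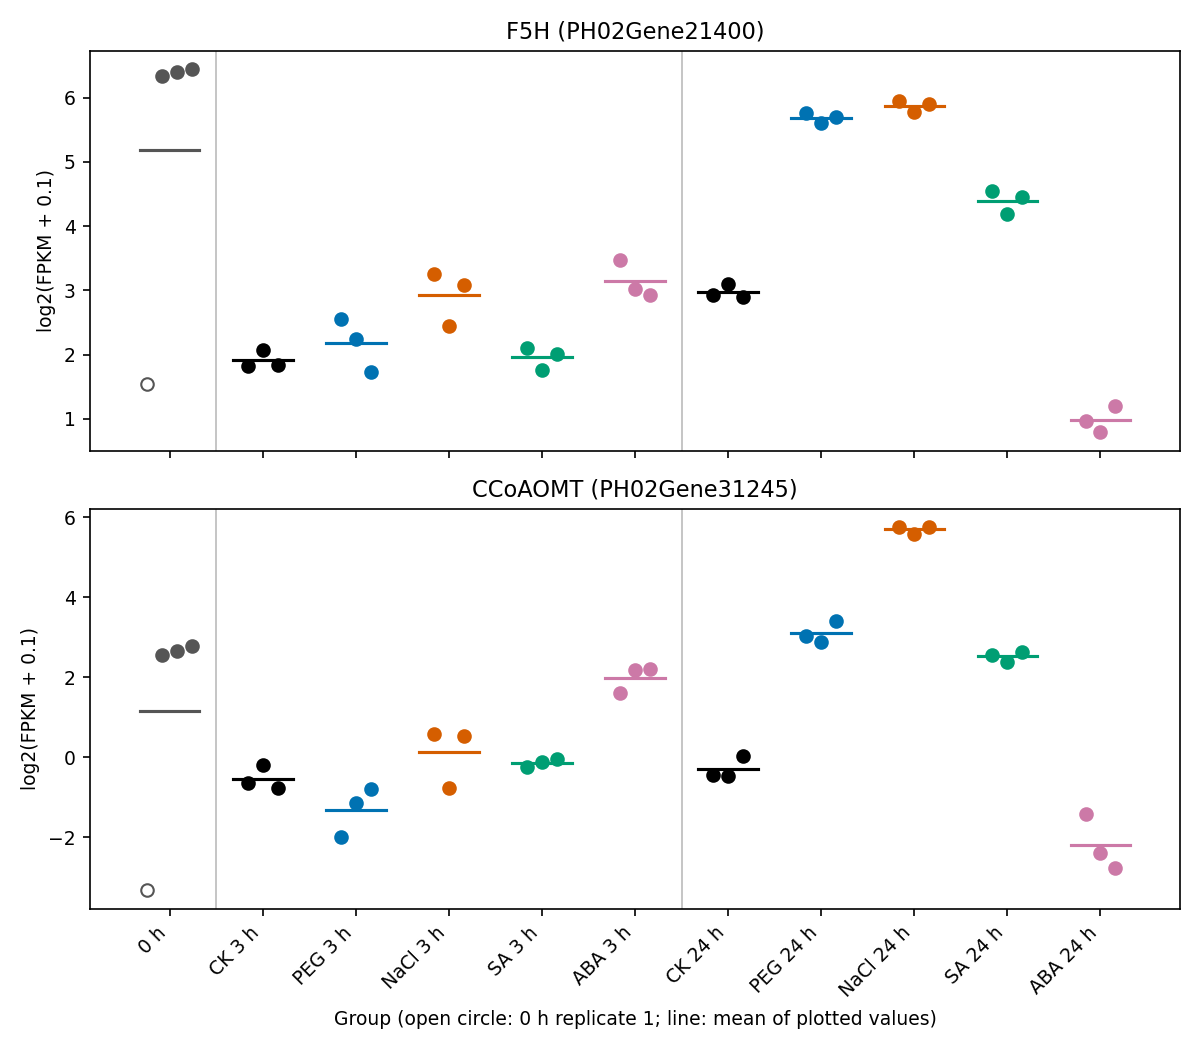
Level of each gene in every library, on a log2(FPKM + 0.1) scale, by group; each point is 1 library, the line is the mean of the plotted values, and the open circle is 0 h replicate 1. PEG 24 h, NaCl 24 h and SA 24 h lie above their 3 h groups in both panels, ABA 24 h lies below its 3 h group, and the open circle lies near the ABA 24 h points rather than near the other 0 h points.

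Set against the CK group of the same time, as a description of values that chose the genes, the difference lay mainly at 24 h. The ratio of mean FPKM to CK 24 h was 7.54 ± 0.749 in NaCl, 6.62 ± 0.607 in PEG and 2.71 ± 0.388 in SA for F5H, and 70.6 ± 17.2, 11.8 ± 3.64 and 7.71 ± 1.95 for CCoAOMT, with errors carried over from the SDs. In the libraries labelled ABA 24 h the direction was the opposite, with ratios of 0.243 ± 0.0413 and 0.190 ± 0.173, and no library of any 24 h treatment overlapped with CK 24 h in either gene. At 3 h, the F5H ratio to CK 3 h was 2.41 ± 0.567 in ABA and 2.10 ± 0.623 in NaCl. In FPKM, PEG (1.24 ± 0.374) and SA (1.04 ± 0.163) overlapped with CK. The CCoAOMT ratio at 3 h was 6.58 ± 2.27 in ABA, and NaCl (1.80 ± 0.98) and SA (1.35 ± 0.369) overlapped with CK in FPKM. PEG 3 h was below CK 3 h for CCoAOMT (0.546 ± 0.311), by a gap from 0.480 to 0.484 FPKM that counts normalised by TMM (trimmed mean of M-values) did not keep. Over all genes, the median log2 ratio to CK 3 h was -0.49 in PEG and -0.44 in SA in FPKM. In TMM-normalised counts it was -0.10 and -0.07. On the TMM scale the F5H ratios to CK 3 h were 1.62 in PEG and 1.33 in SA, without overlap with CK 3 h. The CCoAOMT ratio in SA 3 h was 1.74 on that scale, again without overlap, so the overlap given above held in FPKM only. The NaCl 3 h libraries overlapped with CK 3 h in CCoAOMT on both scales. F5H itself was 2.11 ± 0.271 times as high in CK 24 h as in CK 3 h, without overlap, and CCoAOMT was 1.22 ± 0.428 times as high, with overlap. The level at 0 h was above both CK groups in every library except replicate 1, with ratios to CK 3 h of 22.8 ± 2.52 (F5H) and 10.4 ± 2.83 (CCoAOMT) without that library and of 17.3 ± 11.2 and 7.78 ± 5.61 with it. In leaf samples such as these, fewer cells that express a gene and less RNA per cell cannot be told apart.

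Of 39392 genes with enough counts over the 34 libraries, 859 (2.18%) had CK 3 h and CK 24 h as the 2 lowest of 11 group means, and neither of the 2 genes did. The count was 1801 (4.57%) without the groups labelled 0 h and ABA 24 h, 1530 (3.88%) on TMM-normalised counts and 4978 of 49037 (10.2%) without a filter on low counts, again without the 2 genes. None of the other 18 F5H genes or the other 6 CCoAOMT genes with enough counts did either, and 1 of 127 other genes of the lignin list did.

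Whether the genes changed with time under each treatment was tested without CK and 0 h, on the 24 treated libraries, although these libraries were also in view when the genes were chosen, so the p-values are no independent support for them. Both genes rose from 3 h to 24 h under PEG, NaCl and SA, and both were lower in the libraries labelled ABA 24 h than in ABA 3 h. All tests used edgeR's quasi-likelihood test on counts, with p adjusted by Benjamini-Hochberg over 38447 genes in each comparison but not over the comparisons, and a gene was called at an adjusted p under 0.05 and at least a 2-fold change. F5H rose 10.1-fold under PEG (log2 difference 3.34 ± 0.20, SE, edgeR adjusted p = 2.98e-12), 8.24-fold under NaCl (3.04 ± 0.20, adjusted p = 1.39e-11) and 4.28-fold under SA (2.10 ± 0.20, adjusted p = 7.47e-09). CCoAOMT rose 22.6-fold under PEG (4.50 ± 0.36, edgeR adjusted p = 3.25e-10), 51-fold under NaCl (5.67 ± 0.33, adjusted p = 2.13e-12) and 5.32-fold under SA (2.41 ± 0.31, adjusted p = 1.13e-06). In each of these comparisons every 24 h library was above every 3 h library. Under ABA the order was reversed as labelled, again without overlap, and would be a rise with the labels 0 h and ABA 24 h exchanged. F5H was 3.99-fold lower in the libraries labelled ABA 24 h (log2 difference -1.995 ± 0.21, edgeR adjusted p = 3.23e-08) and CCoAOMT 23.9-fold lower (-4.58 ± 0.41, adjusted p = 2.91e-09). Of all genes tested, 13.5% rose and 15.2% fell under PEG, 13.4% and 11.9% under NaCl, 10.4% and 11.4% under SA, and 14.2% and 17.2% under ABA.

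**Figure D2:**
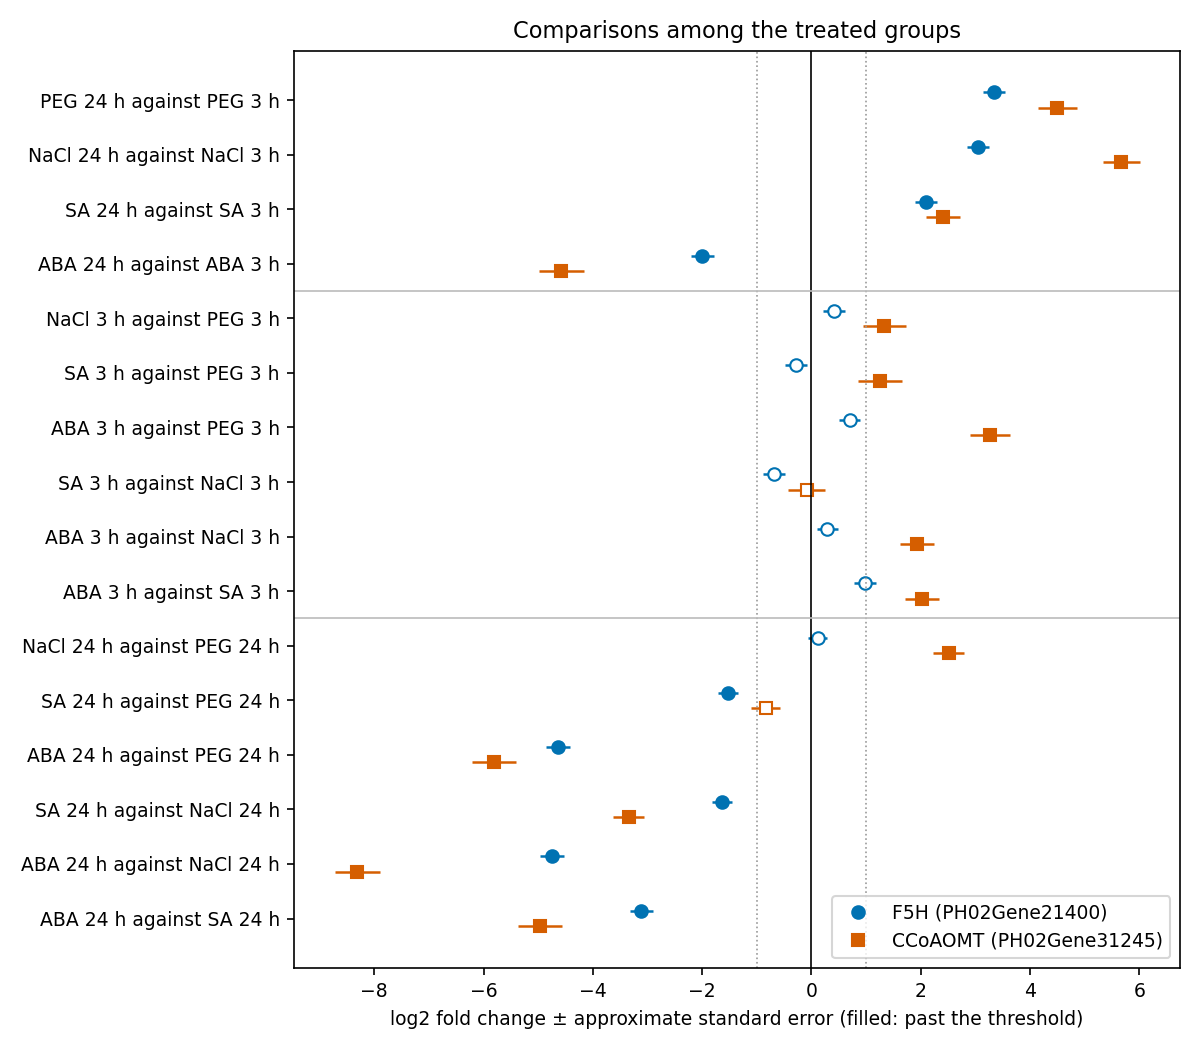
Log2 difference of each gene in the comparisons among treated groups, with bars of approximate standard error; filled symbols passed the threshold, open symbols did not, and dotted lines mark a 2-fold change. Time changes are at the top, pairs of treatments at 3 h in the middle and at 24 h at the bottom; the libraries labelled ABA 24 h lie to the left of zero in the time change and in every 24 h pair for both genes.

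The change with time differed between treatments, by the test of the difference itself. These tests were chosen after seeing the data. As with every test on the treated libraries, the p-values are no independent support for the genes. With ABA 24 h as labelled, the change under ABA was lower than that under each other treatment, by -5.34 ± 0.29 (log2, F5H) and -9.08 ± 0.55 (CCoAOMT) against PEG, with edgeR adjusted p of 1.02e-12 and 5.44e-12. Against NaCl the differences were -5.04 ± 0.29 and -10.25 ± 0.52 (edgeR adjusted p = 1.51e-12 and 1.78e-13), and against SA they were -4.09 ± 0.29 and -6.99 ± 0.52 (edgeR adjusted p = 4.78e-11 and 1.34e-10). Of all genes, 14.3%, 19.4% and 19.3% had a lower change under ABA than under PEG, NaCl and SA. The change under SA was smaller than under PEG for F5H (-1.24 ± 0.27, edgeR adjusted p = 0.000781) and for CCoAOMT (-2.09 ± 0.48, adjusted p = 0.0014), against 11.6% of all genes. With all CK and 0 h libraries added to the fit these SA values were -1.24 and -2.09 again but no longer passed (edgeR adjusted p = 0.194 and 0.103), and they passed when 0 h replicate 1 alone was left out of that fit (edgeR adjusted p = 0.000126 and 0.000417). Against NaCl, the change under SA was smaller for CCoAOMT (-3.26 ± 0.44, edgeR adjusted p = 3.2e-06), against 11.8% of all genes, and for F5H it was under 2-fold (-0.94 ± 0.27, adjusted p = 0.00774). The changes under NaCl and PEG were not told apart, at -0.30 ± 0.27 for F5H (edgeR adjusted p = 0.394) and 1.17 ± 0.49 for CCoAOMT (adjusted p = 0.0585), where 28.5% of all genes were called in either direction. The CCoAOMT value passed under several other settings, among them DESeq2 (1.23, adjusted p = 0.0116).

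At 24 h the calls of the 2 genes differed in some pairs of treatments, and the difference between the genes itself was not tested. F5H did not differ detectably between NaCl and PEG (log2 difference 0.11 ± 0.18, edgeR adjusted p = 0.667), whereas CCoAOMT was 5.69-fold higher in NaCl (2.51 ± 0.28, adjusted p = 1.11e-07), as were 11.7% of all genes at the threshold. SA 24 h was lower than PEG 24 h for F5H, 2.87-fold (-1.52 ± 0.19, edgeR adjusted p = 3.76e-07), against 11.6% of all genes, and CCoAOMT stayed under 2-fold (-0.84 ± 0.27, adjusted p = 0.0151). Against NaCl 24 h, SA 24 h was 3.1-fold lower for F5H (-1.63 ± 0.19, edgeR adjusted p = 2.44e-07) and 10.2-fold lower for CCoAOMT (-3.35 ± 0.29, adjusted p = 3.05e-09), against 9.84% of all genes. The libraries labelled ABA 24 h were lower than each other treatment in both genes. Against PEG they were 24.9-fold (F5H) and 55.9-fold (CCoAOMT) lower, against NaCl 26.9-fold and 318-fold, and against SA 8.68-fold and 31.3-fold. The largest edgeR adjusted p among these 6 values was 4.13e-10, and 12.9%, 20.2% and 19.1% of all genes were lower in ABA in the same comparisons. These results rest on the label in doubt: the 0 h replicates 2 to 4 were above every 24 h library of PEG, NaCl and SA in F5H, and in CCoAOMT they were below PEG 24 h and NaCl 24 h and overlapped with SA 24 h.

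At 3 h only CCoAOMT passed the threshold in any pair of treatments. It was higher in ABA 3 h than in PEG 3 h (9.64-fold, log2 difference 3.27 ± 0.36, edgeR adjusted p = 1.59e-07), NaCl 3 h (3.83-fold, 1.94 ± 0.31, adjusted p = 1.82e-05) and SA 3 h (4.07-fold, 2.02 ± 0.32, adjusted p = 1.02e-05). The shares of all genes higher in ABA were 7.95%, 11.4% and 16%. CCoAOMT was also higher in NaCl 3 h (2.52-fold, 1.33 ± 0.39, edgeR adjusted p = 0.00919) and in SA 3 h (2.37-fold, 1.25 ± 0.40, adjusted p = 0.014) than in PEG 3 h, where 8.20% and 11.9% of all genes were higher. These calls rested on PEG libraries with 7, 14 and 20 counts. Without PEG 3 h replicate 1, the library with 7 counts, the differences were 1.02 and 0.93 and neither was called, and without NaCl 3 h replicate 1 the difference in NaCl was 1.05 and was not called. They also did not pass with all 34 libraries in the fit (edgeR adjusted p = 0.185 and 0.204), but passed with all libraries other than 0 h replicate 1 (edgeR adjusted p = 0.00396 and 0.00683). SA 3 h and NaCl 3 h were not told apart in CCoAOMT (-0.09 ± 0.34, edgeR adjusted p = 0.881), and leaving out NaCl 3 h replicate 1 or 3 turned the sign to 0.17 and 0.08. F5H in SA 3 h was below NaCl 3 h (-0.69 ± 0.20, edgeR adjusted p = 0.0081) by less than 2-fold, in a comparison where 15.5% of all genes were called in either direction. F5H in ABA 3 h was 1.97-fold higher than in SA 3 h (0.98 ± 0.20, edgeR adjusted p = 0.000212), just under the fold threshold, and 1.62-fold higher than in PEG 3 h (0.70 ± 0.20, adjusted p = 0.00667). The remaining F5H values at 3 h lay between -0.28 and 0.41 with edgeR adjusted p from 0.102 to 0.273.

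The balance of the 2 genes differed between groups. The ratio of F5H to CCoAOMT, per library in FPKM and so per transcript length, was 1.13 ± 0.0269 in NaCl 24 h (SD, n = 3), where CCoAOMT nearly equalled F5H. It was 2.41 ± 1.17 in ABA 3 h, 3.72 ± 0.258 in SA 24 h, 4.73 ± 0.825 in SA 3 h, 6.09 ± 1.04 in PEG 24 h, 6.28 ± 0.944 in CK 3 h and 7.93 ± 2.57 in NaCl 3 h (SD, n = 3 each). CK 24 h had a ratio of 11.03 ± 2.88 and 0 h one of 13.5 ± 0.519, the latter over the 3 libraries in which CCoAOMT was above 0. The ratio ran from 6.70 to 38.6 in PEG 3 h and from 6.64 to 47.0 in ABA 24 h, the groups where CCoAOMT had at most 20 counts. F5H thus exceeded CCoAOMT in every library, and NaCl 24 h, with 1.10 to 1.16, lay below the lowest ratio of any other group, 1.68 in ABA 3 h.

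**Figure D3:**
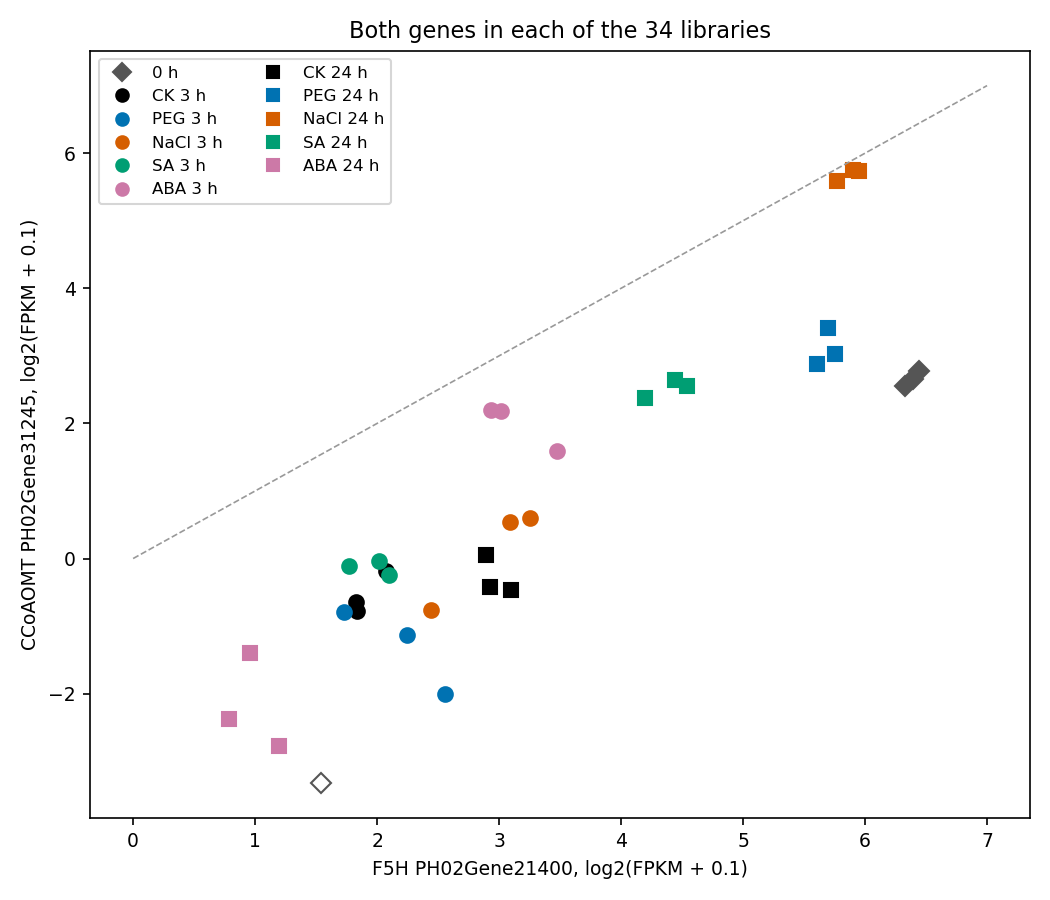
CCoAOMT against F5H in each library, both as log2(FPKM + 0.1), with color for the treatment and shape for the time; the dashed line marks equal levels and the open diamond is 0 h replicate 1. All points lie below the dashed line, and the NaCl 24 h points lie closest to it.

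Over the 11 group means of log2(FPKM + 1), the 2 genes correlated with each other at a Pearson r of 0.860. The r was 0.861 over the 34 libraries, which share groups and depth and are no independent support. Both genes were chosen by their levels in these same groups, and that choice itself favours a high r. CCoAOMT ranked 426th of 39391 genes in likeness to F5H, and F5H ranked 402nd in likeness to CCoAOMT. The genes most like F5H were Phyllostachys_edulis_newGene_6518 (r = 0.982), PH02Gene18918 (0.977), PH02Gene49482 (0.976), PH02Gene28617 (0.973) and PH02Gene27366 (0.971). Of these, Phyllostachys_edulis_newGene_6518 and PH02Gene49482 were above F5H in NaCl 24 h, at 169 and 85.7 FPKM, and below it in the libraries labelled ABA 24 h, at 1.67 and 0.38 FPKM. At 0 h they stood at 136 ± 110.0 and 164 ± 109 FPKM (SD, n = 4), or at 180.0 ± 78.4 and 218 ± 3.16 FPKM without replicate 1. The genes most like CCoAOMT were PH02Gene27234 (r = 0.985), PH02Gene38549 (0.972), Phyllostachys_edulis_newGene_6524 (0.971), PH02Gene14846 (0.969) and Phyllostachys_edulis_newGene_1214 (0.968), whose highest mean was in NaCl 24 h, from 4.18 to 43.2 FPKM. An r over 0.9 was found for 183 genes with F5H and for 131 genes with CCoAOMT. The sources used here do not name these genes.

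In the lignin list, the C4H gene PH02Gene04447 and the 4CL gene PH02Gene03593 were the most like F5H apart from CCoAOMT, with r of 0.863 and 0.853. C4H hydroxylates cinnamic acid and 4CL joins the product to coenzyme A, both early steps of the pathway. Both rose under SA (1.11 ± 0.24 and 1.02 ± 0.085, edgeR adjusted p = 0.000619 and 9.89e-10) and were lower in the libraries labelled ABA 24 h than in ABA 3 h (-2.34 ± 0.27 and -1.09 ± 0.086, edgeR adjusted p = 1.2e-07 and 3.22e-10), and PH02Gene04447 alone passed under PEG (1.14 ± 0.24, edgeR adjusted p = 0.000395). Under NaCl, where F5H rose, both stayed under 2-fold (0.89 ± 0.24 and 0.86 ± 0.084, edgeR adjusted p = 0.00318 and 1.31e-08). Another F5H gene, PH02Gene36673, was the most like CCoAOMT, with r of 0.890. It was low in all groups, with at most 10.8 ± 1.25 FPKM (NaCl 24 h, SD, n = 3), and from 3 h to 24 h it rose under PEG (4.36 ± 0.50), NaCl (3.31 ± 0.41) and SA (2.90 ± 0.42) and fell under ABA (-3.90 ± 0.46), with edgeR adjusted p of at most 4.28e-06. These are the directions of both described genes, with ABA 24 h as labelled. At 0 h the mean of PH02Gene36673 was 2.18 ± 1.56 FPKM (SD, n = 4), below 4.36 ± 1.83 FPKM in ABA 3 h (SD, n = 3). Both described genes were higher in 0 h replicates 2 to 4 than in ABA 3 h. The match under ABA thus rests on the label in doubt.

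Within their families the 2 genes were neither the most abundant nor, by r over the group means, like most other members. Both were chosen by their levels in these same groups, so an unlike pattern may in part follow from that choice. Of the 33 listed F5H genes, 19 had enough counts over the 34 libraries, and PH02Gene21400 ranked 6th of them by mean level (22.4 FPKM). Its share of the family's summed FPKM went from 0.257% in SA 3 h and 0.494% in ABA 24 h to 11.5% in PEG 24 h, 13.3% in NaCl 24 h and 14.6% at 0 h (18.2% without replicate 1). Among the other 18 F5H genes, r to PH02Gene21400 ran from -0.76 to 0.752 with a median of -0.04, beside a median of 0.05 over all genes, and 1 gene, PH02Gene36673, was over 0.7, as were 5.69% of all genes. The most abundant F5H genes had other patterns. PH02Gene18881 was highest in SA 3 h (1260 ± 8.62 FPKM, SD, n = 3) and lowest in ABA 3 h (47.9 ± 2.06), and from 3 h to 24 h it fell under SA (-2.41 ± 0.072, edgeR adjusted p = 5.85e-17) and rose under ABA (1.52 ± 0.071, adjusted p = 3.49e-14). PH02Gene10864 was highest in ABA 24 h (138 ± 15.0 FPKM, SD, n = 3) and also rose under ABA (1.43 ± 0.089, edgeR adjusted p = 4.52e-12).

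Of the 8 listed CCoAOMT genes 7 had enough counts, and PH02Gene31245 ranked 4th (7.06 FPKM). It made up 17.9% of the family's summed FPKM in NaCl 24 h and 8.83% in PEG 24 h, and at most 3.03% in any other group (0 h, 3.1% without replicate 1). For the other 6 genes r to PH02Gene31245 ran from -0.376 to 0.46, and none was over 0.7, beside 5.78% of all genes. The most abundant, PH02Gene07558, was highest in SA 3 h (280 ± 11.2 FPKM, SD, n = 3) and lowest in ABA 24 h, like PH02Gene31245, at 2.90 ± 0.692 FPKM. Under PEG, where PH02Gene31245 rose, it fell from 3 h to 24 h (-3.55 ± 0.13, edgeR adjusted p = 6.45e-16). Reads of near-identical copies within either family could have been split or shared in the counting, which was not checked here.

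**Figure D4:**
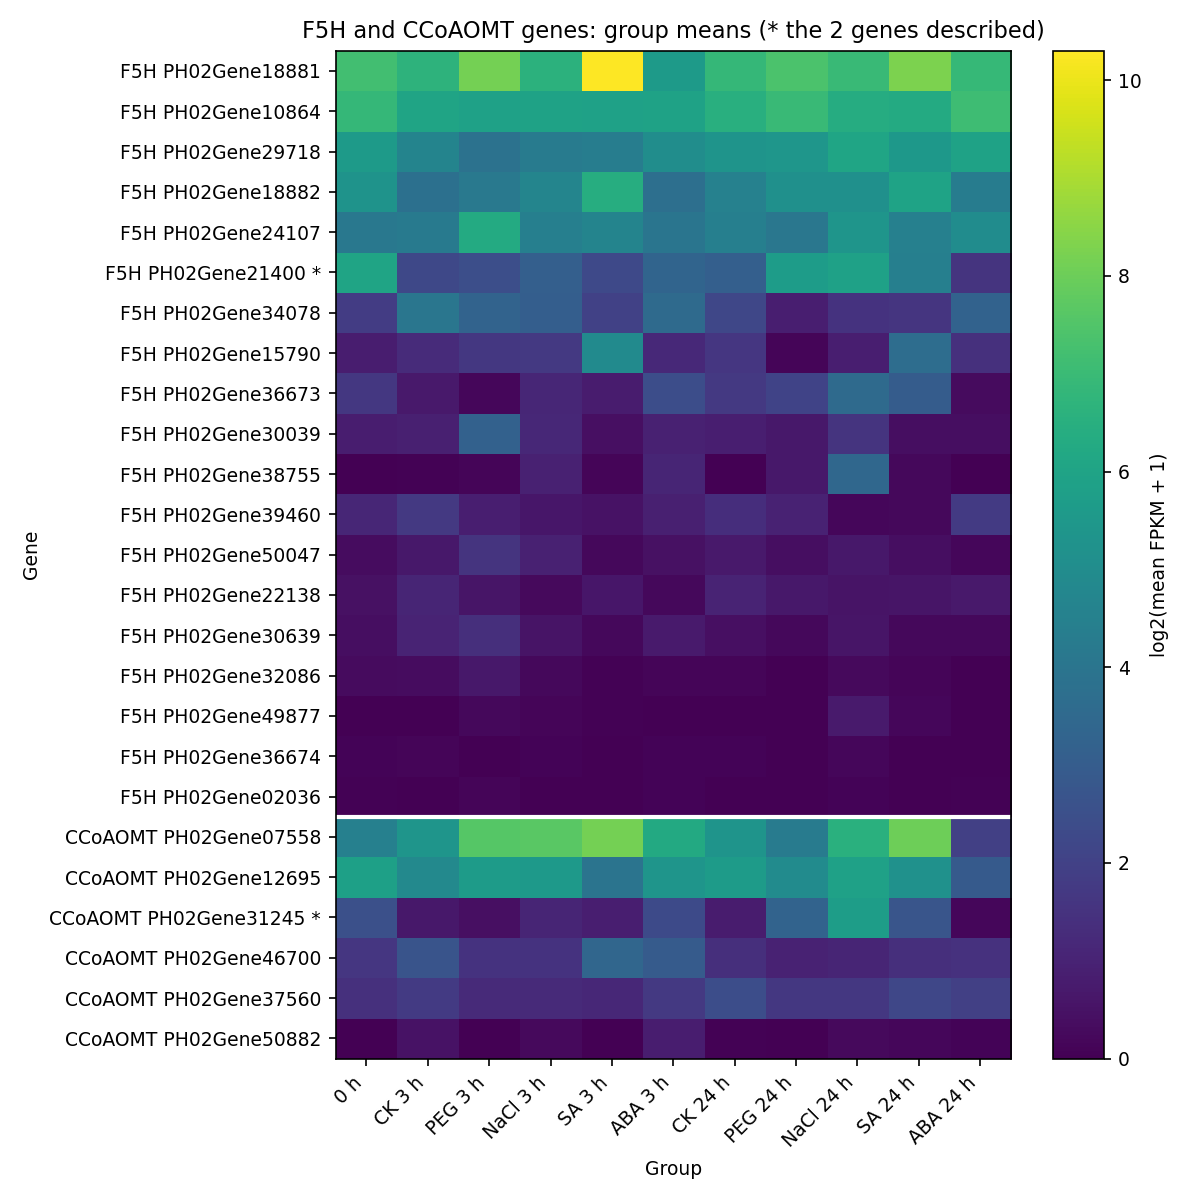
Group means of the F5H and CCoAOMT genes with enough counts, 1 CCoAOMT gene left out, as log2(mean FPKM + 1), 1 row a gene in order of mean level and 1 column a group; stars mark the 2 described genes. PH02Gene21400 is bright in 0 h, PEG 24 h and NaCl 24 h, and PH02Gene31245 in NaCl 24 h.

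Of the 157 other genes of the lignin list, 121 were tested. From 3 h to 24 h, 29 rose and 30 fell under PEG (13.5% and 15.2% of all genes), 31 rose and 19 fell under NaCl (13.4% and 11.9%), 31 rose and 14 fell under SA (10.4% and 11.4%), and 18 rose and 52 fell under ABA as labelled (14.2% and 17.2%). The median log2 change of the 121 genes was 0.09, 0.34, 0.40 and -0.69, beside medians of 0.04, -0.01, -0.01 and 0 over all genes. The shares of all genes just given also apply beside the family counts. Of the 17 other F5H genes tested, 3 rose and 8 fell under PEG, 5 rose and 3 fell under NaCl, 1 rose and 3 fell under SA, and 5 rose and 3 fell under ABA. Of the 6 other CCoAOMT genes tested, none rose and 3 fell under PEG, none rose and 1 fell under NaCl, 2 rose and 1 fell under SA, and none rose and 4 fell under ABA. PAL (phenylalanine ammonia-lyase) opens the pathway, and of 13 PAL genes tested 6 rose and 4 fell under PEG, 3 rose and 2 fell under NaCl, 8 rose and none fell under SA, and all 13 fell under ABA as labelled. All counts for ABA rest on the libraries labelled ABA 24 h.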

How the data were processed

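Poly(A)-selected, random-primed RNA-seq libraries of young leaves were sequenced by the authors. The deposited tables hold raw read counts per gene and FPKM values (scaled to transcript length and library size by the authors) for 34 libraries. The submitters' processing notes name HISAT2 and DESeq2; the read counter, the build and the gene models were not given in the sources used here. The ratio of counts to FPKM implied gene lengths of 2258 bases (F5H) and 1268 bases (CCoAOMT).

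Libraries were grouped by GEO's labels. The members and gene lists were chosen with earlier results of these data known. Counts of the 24 treated libraries were tested with edgeR 4.0.16 (quasi-likelihood, TMM, filterByExpr, 38447 of 59091 genes) in R 4.3.3, with 1 mean per group. Tests covered 4 time changes, 12 pairs of treatments at one time and 6 differences between time changes, the last chosen after seeing the data. Standard errors are the log2 change divided by the root of the F statistic. Alternatives were all 34 libraries, all but 0 h replicate 1, the compared groups alone, DESeq2 1.42.0 and its size factors, no filter, a replicate block, limma 3.58.1 on log2(FPKM + 1) and log2(FPKM + 0.1) for genes with a mean of at least 0.5 FPKM, and each replicate left out. Scripts were tested on simulated data.

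Named genes were the 2 genes, the 5 most like each over group means, the 3 most like each in the lignin list, and the 2 other genes of each family with the highest mean FPKM, of which 1 in the CCoAOMT family is not reported here. In the list of 160 entries, 2 isoforms of 1 gene were merged. Confidence in low values is limited by counting: a count of 0 allows up to 3 counts, for counting error only.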

Additional observations from a re-analysis of the deposited data

Results flagged for a closer look

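The library labelled 0 h replicate 1 lay far from the other 0 h libraries in both genes. F5H PH02Gene21400 was at 2.81 FPKM there against 80.2 to 87.0 FPKM in the others, and CCoAOMT PH02Gene31245 was at 0.0 against 5.75 to 6.74 FPKM. The gap to the nearest library was 0.919 and 0.854 of the range of the group. This is a description, since the 0 h levels entered the choice of the genes and the library already stood apart over all genes. By chance, about 1 in 20 groups would show such a gap.

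The change from 3 h to 24 h differed between treatments, by the edgeR test of the difference, with ABA 24 h as labelled. These tests were chosen after seeing the data, on libraries in view when the genes were chosen, and are no independent support. For F5H it was lower under SA than under PEG by -1.24 on the log2 scale, and lower under ABA than under PEG, NaCl and SA by -5.34, -5.04 and -4.09. For CCoAOMT it was lower under SA than under PEG and NaCl by -2.09 and -3.26, and lower under ABA than under PEG, NaCl and SA by -9.08, -10.25 and -6.99.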

How the results depend on the processing

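Both genes kept the direction and the call of their 4 time changes and of their 24 h comparisons under every alternative run; the values below are log2 differences, and the cause of each shift was not tested. For CCoAOMT, NaCl 3 h against PEG 3 h (1.33) was no longer called with all 34 libraries (1.33), with only the compared groups (1.34) or with limma on log2(FPKM + 1) (0.62), and ran from 1.02 to 1.70 with single libraries left out. SA 3 h against PEG 3 h (1.25) was not called at 1.25, 1.195 and 0.46 under the same settings, and ran from 0.93 to 1.61. SA 3 h against NaCl 3 h (-0.09) ran from -0.45 to 0.17, with the sign turned at 0.17 and 0.08 without NaCl 3 h replicate 1 or 3. The smaller time change in SA than in PEG was not called with all 34 libraries (F5H -1.24, CCoAOMT -2.09), nor for CCoAOMT with limma on log2(FPKM + 1) (-0.98). For CCoAOMT, the time change in NaCl against PEG (1.17) was called without 0 h replicate 1 in a fit of all other libraries (1.17), with DESeq2 size factors (1.24), DESeq2 (1.23) and limma on log2(FPKM + 1) (1.84), and ran from 0.81 to 1.49 with libraries left out, called without PEG 3 h replicate 1, PEG 24 h replicate 3 or NaCl 3 h replicate 1 or 3. F5H in ABA 3 h against SA 3 h (0.98) was called with only the compared groups (1.0), no filter (1.025), limma on log2(FPKM + 1) (1.02) and on log2(FPKM + 0.1) (1.18), and ran from 0.80 to 1.09. The F5H time change in SA against NaCl (-0.94) ran from -1.11 to -0.69 and was called without NaCl 3 h replicate 1 or SA 3 h replicate 2. Replicate numbers did not pair the libraries: deviations of same-numbered libraries of different groups correlated from -0.166 to 0.129, 2 of 84 pairs over 0.1. The replicate block changed no call of either gene among 44 and moved no count of genes by over 1.5 times. The limma fit on log2(FPKM + 1) called fewer genes than edgeR: 6937 against 11030 (PEG, 24 h against 3 h), 6233 against 9731 (NaCl), 5397 against 8377 (SA), 6977 against 12066 (ABA), at 3 h 4084 against 6382 (NaCl and PEG), 5203 against 9135 (SA and PEG), 3754 against 7116 (ABA and PEG; 4507 with only these groups in the edgeR fit), 3788 against 5966 (SA and NaCl), 5311 against 9367 (ABA and NaCl), 7880 against 12826 (ABA and SA), and at 24 h 4607 against 7677 (NaCl and PEG), 4762 against 8627 (ABA and PEG), 3838 against 6429 (SA and NaCl) and 8737 against 13725 (ABA and NaCl). On the FPKM scale the share of called genes that were higher moved by over 10 points in some comparisons, most for the time change in SA against NaCl (74.2% with limma on log2(FPKM + 0.1) against 45.5% with edgeR) and for NaCl 3 h against PEG 3 h (76.3% against 49.4%). It was 69.5% against 47.6% for SA 24 h against SA 3 h. Genes with the CK groups lowest numbered 859, and 1801 without the 0 h and ABA 24 h groups, 1530 on TMM-normalised counts and 4978 without a filter; the 2 genes were in none of these counts. The precision of CCoAOMT in CK, PEG 3 h, NaCl 3 h, SA 3 h and ABA 24 h libraries was limited by their 2 to 70 counts.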
